A study of Homo sapiens with 6 samples.

Results

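WNT signalling was described through 37 genes that encode its ligands, receptors, antagonists, intracellular components, transcription factors and feedback targets. The genes were taken by symbol from the deposited count table, and all 37 had a row among its 37923 genes. RNA had been sequenced from 6 libraries of cells labelled RKO, a line from a human colorectal carcinoma. The ENZ group held 3 libraries, which the series design describes as cells given a degrader of the histone demethylase LSD1 (compound A3), and the Control group held 3 libraries of the same labelled line. Cells were collected 48 h after treatment per the series design. The sources used here do not give the dose, the agent that Control cells received, the meaning of the name ENZ or what separated the replicates. A p-value therefore reflects the scatter among these libraries, which may be technical. Every value comes from a bulk sample of a single labelled line, in which fewer cells of a kind and less RNA per cell cannot be told apart.

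The ENZ libraries held 26756840 to 30025543 counts and the Control libraries 26691289 to 28207612, so that 3 counts, the limit that a count of 0 allows for counting error alone, corresponded to 0.0999 to 0.112 CPM (counts scaled to a library total of 1e+06). KDM1A, which encodes LSD1, had 105, 108 and 111 CPM in ENZ libraries and 113, 110 and 115 CPM in Control libraries (log2 fold change −0.02, 95% interval −0.11 to 0.06; adjusted p = 0.681, edgeR), and a degrader acts on the protein, so this transcript is no check of the exposure. The label of the cells did not match all of the markers examined. Among 9 colorectal epithelial markers, 6 averaged under 1 CPM, CDX1 and KRT20 among them, whereas of 8 prostate luminal markers 6 had a mean of at least 10 CPM and 0 were under 1 CPM. The prostate luminal list summed to 1336 to 1351 CPM in ENZ libraries and 1296 to 1325 CPM in Control libraries. These similar sums held changes in both directions, with 3 of the 8 genes called higher and 4 lower, from SLC45A3 (log2 fold change −1.69) to TMPRSS2 (0.75), and FOLH1 alone had 857 CPM in ENZ libraries and 626 CPM in Control libraries. The part of the identity of the cells in the results on WNT genes was not tested. Leukocyte and endothelial markers were under 1 CPM without exception (7 and 5 genes), and fibroblast markers summed to 40.2 to 43.1 CPM in ENZ libraries and 77.7 to 86.7 CPM in Control libraries, nearly all of it from LUM and COL1A1.

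In canonical WNT signalling a secreted, lipid-modified WNT protein binds a frizzled receptor and an LRP co-receptor at the cell surface. Binding stops a complex of APC, AXIN and the kinase GSK3 from marking beta-catenin for destruction, and beta-catenin then enters the nucleus and joins TCF/LEF factors on target genes. Several targets, such as AXIN2, RNF43, ZNRF3, DKK1, NKD1 and NOTUM, act back on the pathway as brakes. In the intestine the pathway maintains the crypt stem cells that carry LGR5, and APC is the gene most often lost early in colorectal cancer. Frizzled and ROR receptors also transmit signals that do not pass through beta-catenin.

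The promoter table used here (RefSeq, GRCh38.p14) held 34 windows for 24 of the 37 genes. Absent from it were ASCL2, AXIN2, DKK3, FZD3, FZD6, FZD7, LGR5, LRP6, NKD1, NOTUM, SFRP1, WNT7B and ZNRF3. The 250 bases before the annotated start are shown for 4 genes with a single window each: DKK1 and ROR1, which were higher in ENZ libraries, and FZD5 and LGR4, which were lower. Capitals mark matches, on either strand, to CTTTGA, the core of the letters that TCF/LEF factors are known to bind, extended where the match runs to CTTTGAA or CTTTGAT. The windows lie at chr10:52314031-52314280 on the plus strand (DKK1), chr1:63773767-63774016 on the plus strand (ROR1), chr2:207769907-207770156 on the minus strand (FZD5) and chr11:27472791-27473040 on the minus strand (LGR4).
DKK1: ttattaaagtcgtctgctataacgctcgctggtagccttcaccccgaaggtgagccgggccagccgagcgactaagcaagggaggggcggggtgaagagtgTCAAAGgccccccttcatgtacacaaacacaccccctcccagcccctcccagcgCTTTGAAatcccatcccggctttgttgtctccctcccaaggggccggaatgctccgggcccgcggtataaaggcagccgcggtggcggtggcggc
ROR1: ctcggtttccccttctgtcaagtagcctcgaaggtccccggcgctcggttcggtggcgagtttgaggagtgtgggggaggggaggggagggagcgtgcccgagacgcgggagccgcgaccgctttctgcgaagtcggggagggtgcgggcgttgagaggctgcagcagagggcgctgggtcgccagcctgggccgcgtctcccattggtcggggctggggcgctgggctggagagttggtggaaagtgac
FZD5: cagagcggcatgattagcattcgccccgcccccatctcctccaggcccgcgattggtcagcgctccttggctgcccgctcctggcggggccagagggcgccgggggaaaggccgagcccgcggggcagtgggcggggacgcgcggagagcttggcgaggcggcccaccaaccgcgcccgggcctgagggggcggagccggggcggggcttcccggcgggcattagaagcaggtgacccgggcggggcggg
LGR4: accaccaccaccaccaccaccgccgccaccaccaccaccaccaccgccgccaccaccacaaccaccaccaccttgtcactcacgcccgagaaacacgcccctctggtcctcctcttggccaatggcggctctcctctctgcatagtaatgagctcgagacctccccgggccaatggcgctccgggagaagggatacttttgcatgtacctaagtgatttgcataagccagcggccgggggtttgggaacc
DKK1 alone among these 4 held the letters, with TCAAAG beginning 149 bases and CTTTGAA beginning 95 bases before the start. Over the 34 windows, CTTTGA was in 2 (DKK1 and PORCN), CTTTGAA in 1 (DKK1) and CTTTGAT in 0. Among all 35116 windows of the table, 11.21% held CTTTGA, 3.8% held CTTTGAA and 2.26% held CTTTGAT, on either strand. The longer words contain the shorter one, so these shares overlap. A match is a description of the letters and not a binding site.

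Per length, the transcript of beta-catenin was the most abundant of the 37. CTNNB1 had 38.6 ± 0.603 FPKM in ENZ libraries and 35.4 ± 0.502 in Control libraries (fragments scaled by gene length and library total; mean ± SD, n = 3 each). DKK1 and FZD6 followed, DKK1 at 15.97 ± 0.640 FPKM in ENZ libraries and 11.6 ± 1.18 in Control libraries, and FZD6 at 13.7 ± 1.06 and 14.9 ± 0.477 FPKM in ENZ and Control libraries. By group means DKK1 lay above FZD6 in ENZ libraries and below it in Control libraries. AXIN1, LRP5, GSK3B, FZD8, LEF1 and FZD5 formed the next tier, between 6.59 and 9.57 FPKM in the group means. Neighbours in this tier could be closer than their spread, as GSK3B (9.29 ± 0.481 FPKM) and LRP5 (9.29 ± 0.646 FPKM) were in ENZ libraries, and 18 of the 37 genes had a mean of at least 1 FPKM. At the low end the stem cell genes LGR5 (0.0624 FPKM in ENZ libraries and 0.0815 in Control libraries) and ASCL2 (0.126 and 0.0650 FPKM) and the lipase NOTUM (0.151 and 0.147 FPKM) were close to the limit of detection.

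Of the 37 genes 30 passed the filter on low counts and were tested, and 16 of these were called at an adjusted p under 0.05 (edgeR's quasi-likelihood test, adjusted over all 18581 genes tested). The 16 comprised 11 genes higher and 5 lower in ENZ libraries. Over all genes tested 39.8% were called, 20.5% higher and 19.3% lower, and 2.98% were called with an absolute log2 fold change over 1, the limit stated in the series design. No WNT gene of the 37 passed that limit (0 of 30), and their log2 fold changes ran from −0.60 (LGR4) to 0.91 (WLS). CPM values of the groups did not overlap for 17 of the 30 tested genes (56.7%), against 49.2% of all genes tested. Of the called genes LRP5 was the one with overlapping groups. The median log2 fold change of the 30 was 0.16, against −0.01 over all genes tested. The 7 untested genes (LGR6, DKK3, NKD1, SFRP1, RSPO3, ROR2 and ASCL2) had at most 8 counts in any library.

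**Figure D1:**
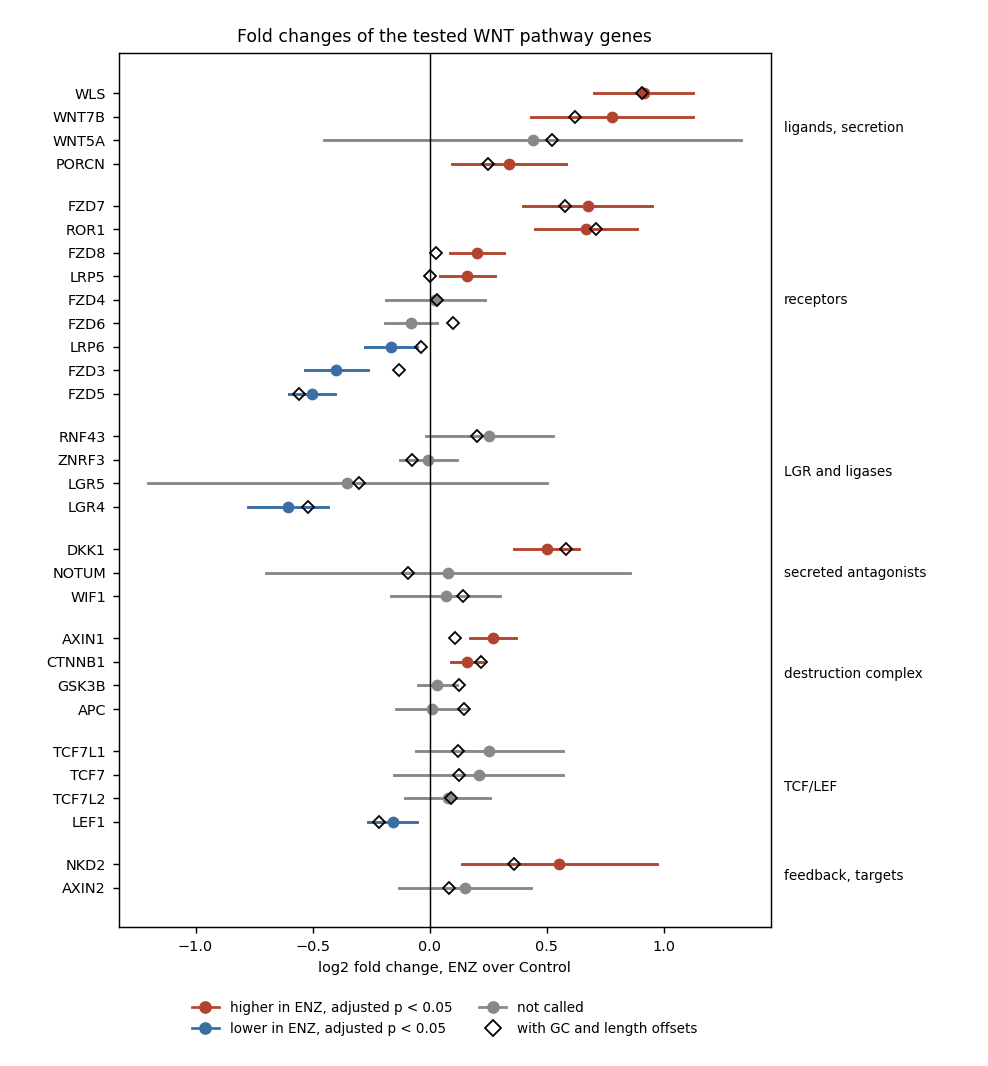
Log2 fold change (ENZ over Control) of the 30 tested WNT genes by role, as filled points with 95% intervals from edgeR; open diamonds are the values with offsets for GC content and length. The rises of WLS, WNT7B, FZD7, ROR1 and DKK1 and the falls of FZD5 and LGR4 stand clear of 0 on both scales, while FZD8, LRP5 and LRP6 move to between −0.04 and 0.02 with the offsets.

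Of the 4 tested genes that encode or export WNT proteins, WLS, WNT7B and PORCN were called higher in ENZ libraries and WNT5A was not called. WLS, the carrier that brings WNT proteins to the cell surface, had 11, 13.2 and 10.7 CPM in ENZ libraries and 6.52, 6.07 and 6.29 CPM in Control libraries. The lowest ENZ library exceeded the highest Control library by a wide margin. It rose 1.88-fold, the largest change among the 30 tested genes (log2 fold change 0.91 ± 0.10 SE; adjusted p = 3.05e-07). WNT7B, a ligand known for canonical signalling, had 3.20, 3.48 and 2.65 CPM in ENZ libraries and 1.84, 1.73 and 1.99 CPM in Control libraries, again without overlap, and rose 1.71-fold (0.78 ± 0.17; adjusted p = 7.72e-04). PORCN, the acyltransferase that adds the lipid to WNT proteins, had 5.63, 6.28 and 6.40 CPM in ENZ libraries, above the 4.40, 5.19 and 5.25 CPM in Control libraries (0.34 ± 0.12; adjusted p = 0.0249). The call on PORCN was lost without ENZ replicate 2 (0.32, adjusted p = 0.0757), ENZ replicate 3 (0.30, adjusted p = 0.0826) or Control replicate 1 (0.26, adjusted p = 0.135), with GC and length offsets (0.25, adjusted p = 0.0782) and in DESeq2 (adjusted p = 0.076). The non-canonical ligand WNT5A was near the limit of detection, with 22, 6 and 21 counts in ENZ libraries and 14, 6 and 15 counts in Control libraries, and replicate 2 was lowest in both groups. RSPO3, an R-spondin that strengthens WNT signals, had 0 to 2 counts in all libraries.

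In GRCh38 WLS (ENSG00000116729) lies on chromosome 1 from 68098473 to 68233120 and WNT7B (ENSG00000188064) on chromosome 22 from 45920366 to 45977162, both on the minus strand. Among the other 16 WNT ligand genes in the table, WNT9A rose (8.68 ± 0.821 CPM in ENZ libraries and 5.77 ± 0.411 in Control libraries; log2 fold change 0.63; adjusted p = 6.39e-05), and WNT2 and WNT2B fell by 0.53 and 0.65 on the log2 scale (adjusted p = 0.0067 and 0.00953). WNT4 and WNT5B were called higher at a mean under 1 CPM, by 0.94 and 1.07 on the log2 scale. The WNT5B groups overlapped, with 0.57, 1.23 and 1.16 CPM in ENZ libraries and 0.71, 0.40 and 0.30 CPM in Control libraries. The most abundant ligand transcript per length was WNT10B, at 5.74 FPKM in ENZ libraries and 5.11 FPKM in Control libraries, with an adjusted p of 0.0505 (log2 fold change 0.20, and 0.10 with the offsets). Summed over all 18 ligand genes, the level was 12.4, 11.7 and 12.4 FPKM in ENZ libraries and 10.8, 10.8 and 10.8 FPKM in Control libraries. Every ENZ sum therefore lay above every Control sum. These sums carry no GC and length offsets, and no test was made on them.

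**Figure D2:**
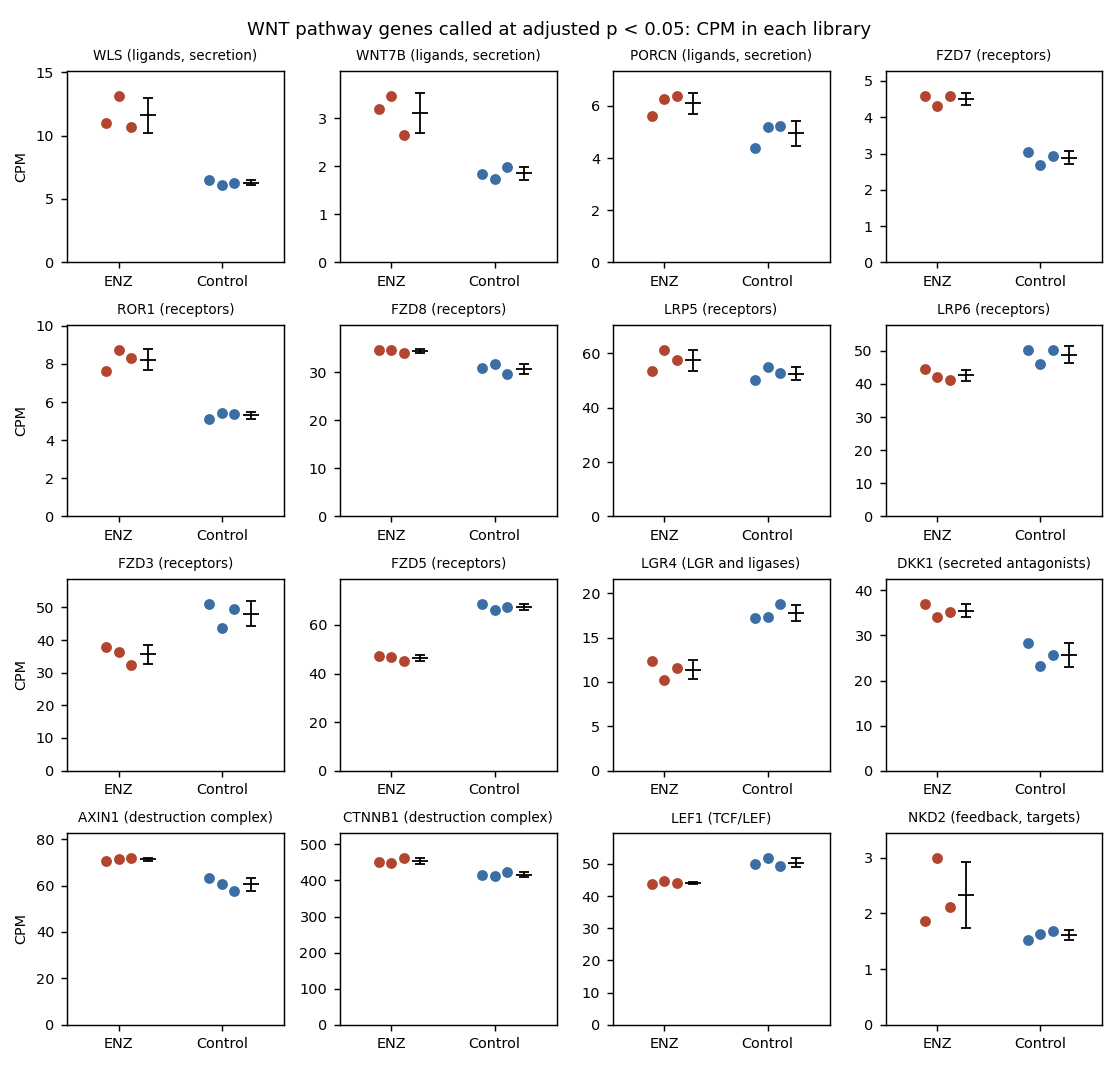
CPM of the 16 called WNT genes in each library (points; y axes start at 0), with the mean and SD of the 3 libraries beside them. The groups separate for 15 of these genes, which were picked by their call, and for 49.2% of all genes tested. For LRP5 the lowest ENZ library (53.4 CPM) lies below the highest Control library (54.9 CPM).

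Receptor genes changed in both directions, with 4 of 9 tested called higher and 3 lower, and the frizzled family itself was divided. With GC and length offsets 2 receptor genes were called higher and 2 lower. Calls in both directions were common, at 20.5% higher and 19.3% lower over all genes tested in the main fit. With the offsets 4328 genes were called higher and 3476 lower of 18538 tested. FZD5, a frizzled receptor of the intestinal epithelium, had 47.4, 46.8 and 45.1 CPM in ENZ libraries and 68.7, 66.2 and 67.3 CPM in Control libraries. The groups were far apart relative to their spread, and FZD5 fell by 0.50 ± 0.05 on the log2 scale (adjusted p = 2.85e-08). FZD3, which is known for guiding axons, fell to 38.0, 36.3 and 32.4 CPM in ENZ libraries, against 51, 43.6 and 49.6 CPM in Control libraries (−0.40 ± 0.06; adjusted p = 5.1e-05). With the offsets its fall was 0.13 on the log2 scale and remained a call (adjusted p = 0.0276). FZD7, a receptor studied in stem and tumour cells, had 4.6, 4.3 and 4.59 CPM in ENZ libraries and 3.05, 2.69 and 2.92 CPM in Control libraries, and rose 1.6-fold (0.67 ± 0.13; adjusted p = 3.28e-04). FZD8 had 34.7, 34.6 and 34.0 CPM in ENZ libraries and 30.8, 31.6 and 29.6 CPM in Control libraries (0.20 ± 0.06; adjusted p = 0.00687). With offsets for GC content and length FZD8 was not called (0.02, adjusted p = 0.733).

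Of the remaining frizzled receptors, FZD6 was the most abundant per length and was not called. It had 60.7, 54.3 and 52.6 CPM in ENZ libraries and 59.8, 59.2 and 62.8 CPM in Control libraries (log2 fold change −0.08, interval −0.19 to 0.03; adjusted p = 0.238). ENZ replicate 1 lay within the Control range, and without it FZD6 was called lower (−0.14, adjusted p = 0.021). With GC and length offsets its direction turned (0.10, adjusted p = 0.0517). FZD4 had 6.29 to 6.46 CPM in ENZ libraries and 6.29 to 6.63 CPM in Control libraries (0.02, interval −0.19 to 0.23). Part of its exonic sequence (18.9%) also belongs to PRSS23 on the opposite strand, and the strand setting of the counting is not known, so reads of both genes may be mixed. FZD1, which is not among the 37, had 71.5, 74.1 and 71.1 CPM in ENZ libraries and 89.6, 94.3 and 88.0 CPM in Control libraries (−0.29; adjusted p = 2.42e-05).

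The make-up of the 6 frizzled transcripts was also set side by side. FZD5 made up 19.3%, 20.17% and 20.03% of their summed FPKM in ENZ libraries and 26.2%, 25.9% and 25.5% in Control libraries. FZD8 took 24.6%, 25.9% and 26.3% in ENZ libraries and 20.4%, 21.5% and 19.5% in Control libraries, so that FZD8 stood above FZD5 in all ENZ libraries and below it in all Control libraries. FZD6 kept the largest share, at 41.3 ± 1.40% in ENZ libraries and 40.2 ± 0.924% in Control libraries. FZD7 had 2.95 ± 0.159% in ENZ libraries and 1.70 ± 0.0859% in Control libraries. The sum over the 6 genes was 33.3 ± 1.46 FPKM in ENZ libraries and 37.0 ± 0.587 FPKM in Control libraries. Shares depend on one another and on the lengths the authors used, and no test was made on them. They carry no GC and length offsets, with which the log2 fold change of FZD8 was 0.02. FZD1, outside the 6, had 10.5 FPKM in ENZ libraries and 13.1 FPKM in Control libraries, above FZD5 and FZD8 in both groups.

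**Figure D3:**
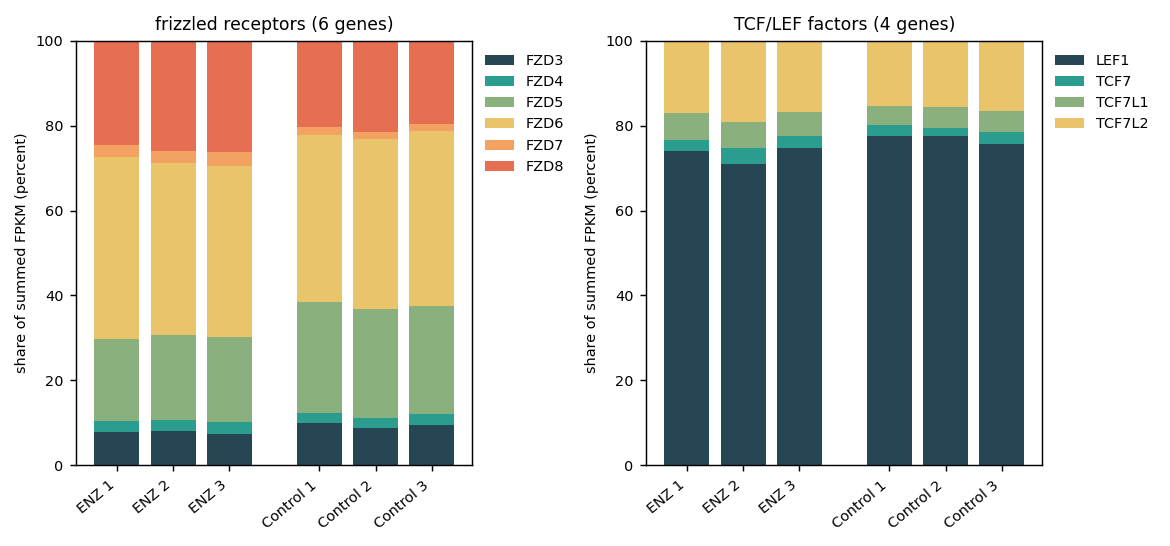
Share of the summed FPKM of the 6 listed frizzled receptors (left) and of the 4 TCF/LEF factors (right) taken by each gene, with 1 bar per library. In ENZ libraries FZD5 is the narrower band (19.3% to 20.2%, against 25.5% to 26.2% in Control libraries), and LEF1 makes up most of the TCF/LEF transcripts in every library.

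The co-receptors LRP5 and LRP6, which frizzled receptors need for canonical signalling, moved apart by small amounts. LRP5 had 53.4, 61.4 and 57.6 CPM in ENZ libraries and 50.1, 54.9 and 52.9 CPM in Control libraries, with overlapping groups (0.16 ± 0.06; adjusted p = 0.0288). LRP6 had 44.4, 42.2 and 41.1 CPM in ENZ libraries, all below the 50.2, 46 and 50.3 CPM in Control libraries (−0.16 ± 0.05; adjusted p = 0.0177). Neither call held with GC and length offsets, where LRP5 stood at 0.00 on the log2 scale (adjusted p = 0.981) and LRP6 at −0.04 (adjusted p = 0.552). LRP5 also lost its call without ENZ replicate 2 (0.11, adjusted p = 0.193), ENZ replicate 3 (0.16, adjusted p = 0.0532), Control replicate 1 (0.12, adjusted p = 0.158) or Control replicate 3 (0.17, adjusted p = 0.0676). LRP6 lost it without ENZ replicate 2 (−0.16, adjusted p = 0.0701), ENZ replicate 3 (−0.14, adjusted p = 0.0604), Control replicate 1 (−0.14, adjusted p = 0.0946) or Control replicate 3 (−0.14, adjusted p = 0.0942).

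ROR1, a receptor tyrosine kinase-like protein that binds WNT5A, rose clearly. It had 7.63, 8.75 and 8.30 CPM in ENZ libraries and 5.11, 5.45 and 5.36 CPM in Control libraries, a 1.59-fold difference with no overlap (0.67 ± 0.10; adjusted p = 2.82e-05). Its paralogue ROR2 had 0, 0 and 1 counts in ENZ libraries and 0 in each Control library. In GRCh38 ROR1 (ENSG00000185483) spans 63774017 to 64181498 on chromosome 1 and FZD5 (ENSG00000163251) 207762598 to 207769906 on chromosome 2.

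The receptors for R-spondins and the ubiquitin ligases they control had 1 call among 4 tested, a fall. LGR4, the R-spondin receptor with the widest tissue distribution, had 12.4, 10.2 and 11.6 CPM in ENZ libraries and 17.2, 17.3 and 18.8 CPM in Control libraries. It fell by 0.60 ± 0.08 on the log2 scale (adjusted p = 4.98e-06), the largest fall among the 30 tested genes, and the groups did not overlap. LGR4 held 94.8% to 96.3% of the summed FPKM of the 3 LGR receptors in ENZ libraries and 96.5% to 97.9% in Control libraries. LGR5, the intestinal stem cell receptor, had 6, 9 and 13 counts in ENZ libraries and 13, 13 and 9 counts in Control libraries, and LGR6 had 5, 2 and 2 counts in ENZ libraries and 1, 1 and 0 counts in Control libraries. ZNRF3, a ligase that removes frizzled receptors from the surface, had 33.2, 37.3 and 33.7 CPM in ENZ libraries and 34.8, 36.2 and 36.2 CPM in Control libraries (−0.01, interval −0.13 to 0.12; adjusted p = 0.95). RNF43, its close relative, had 4.23, 4.15 and 3.88 CPM in ENZ libraries and 3.72, 3.57 and 3.22 CPM in Control libraries (0.25, interval −0.02 to 0.53; adjusted p = 0.13). Of the exonic bases of RNF43, 68.4% also belong to a readthrough gene annotated on the same strand (ENSG00000285897), so its count is uncertain.

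The secreted antagonists had 1 call among 3 tested. DKK1, a target of beta-catenin that blocks LRP5 and LRP6 and whose upstream letters are shown above, had 37.0, 34.2 and 35.2 CPM in ENZ libraries and 28.4, 23.1 and 25.6 CPM in Control libraries. It rose 1.41-fold without overlap (0.50 ± 0.07; adjusted p = 4.06e-06), and with GC and length offsets the log2 fold change was 0.58. The gene (ENSG00000107984) spans 52314281 to 52318042 on chromosome 10 in GRCh38, and 10.2% of its exonic bases are shared with PRKG1-AS1 on the opposite strand. WIF1, which binds WNT proteins directly, had 9.86, 10.2 and 8.61 CPM in ENZ libraries and 8.19, 8.65 and 11.2 CPM in Control libraries, with full overlap (0.07, interval −0.16 to 0.30; adjusted p = 0.666). NOTUM, which removes the lipid from WNT proteins, had 10 to 15 counts in ENZ libraries and 9 to 15 in Control libraries. SFRP1 had 0 to 4 counts in ENZ libraries and 0 to 2 in Control libraries. DKK3, a DKK family protein, had 0 to 3 counts in ENZ libraries and 0 to 1 in Control libraries. KREMEN1, a receptor through which DKK1 acts and which is not among the 37, rose 1.62-fold (13 ± 1.29 CPM in ENZ libraries and 8.24 ± 0.752 in Control libraries; adjusted p = 6.44e-06).

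Beta-catenin and the complex that destroys it changed little. CTNNB1 had 451, 449 and 462 CPM in ENZ libraries and 415, 412 and 423 CPM in Control libraries, and rose 1.12-fold without overlap (0.16 ± 0.03; adjusted p = 6.2e-04). AXIN1, the scaffold of the complex, had 70.7, 71.3 and 71.8 CPM in ENZ libraries and 63.1, 60.7 and 57.7 CPM in Control libraries (0.27 ± 0.05; adjusted p = 9.93e-05). The offsets reduced the AXIN1 value to 0.11, still a call (adjusted p = 0.0324). The tumour suppressor APC had 59.5, 52.0 and 47.3 CPM in ENZ libraries and 57.9, 50.5 and 53.5 CPM in Control libraries (0.01, interval −0.14 to 0.16; adjusted p = 0.948). GSK3B, the kinase that marks beta-catenin, had 174, 167 and 157 CPM in ENZ libraries and 169, 167 and 163 CPM in Control libraries (0.03, interval −0.05 to 0.11; adjusted p = 0.566). Fold changes include TMM scaling and the CPM values do not, so the 2 can differ in sign near 0, as for APC. With GC and length offsets both were called higher, APC at 0.15 (adjusted p = 0.0125) and GSK3B at 0.12 (adjusted p = 0.00216). The protein is the regulated form of beta-catenin and was not measured.

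Among the TCF/LEF factors, 1 of 4 was called. LEF1, a factor that the pathway itself induces in many cells, had 43.7, 44.5 and 44.1 CPM in ENZ libraries and 50.1, 51.8 and 49.3 CPM in Control libraries. It fell by 0.16 ± 0.05 on the log2 scale (adjusted p = 0.016), with no overlap, and was not called without Control replicate 2 (−0.13, adjusted p = 0.0776). TCF7L2, the main factor of the intestinal epithelium, had 12.7, 15.1 and 12.5 CPM in ENZ libraries and 12.5, 13 and 13.5 CPM in Control libraries (0.08, interval −0.10 to 0.26; adjusted p = 0.517). TCF7 had 2.93 to 4.45 CPM in ENZ libraries and 2.54 to 3.52 CPM in Control libraries. The repressor TCF7L1 had 2.76 to 3.10 CPM in ENZ libraries and 2.30 to 2.72 CPM in Control libraries, without overlap. TCF7 and TCF7L1 were not called (adjusted p = 0.363 and 0.193). Per length LEF1 was the dominant factor, with 73.9%, 71.0% and 74.8% of the summed FPKM in ENZ libraries and 77.7%, 77.5% and 75.7% in Control libraries. TCF7L2 took 17.7 ± 1.29% in ENZ libraries and 15.8 ± 0.595% in Control libraries.

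Of the intracellular feedback and target genes 2 were tested and 1, NKD2, was called, higher. AXIN2, the target most often read as a measure of beta-catenin activity, had 3.93, 3.48 and 3.64 CPM in ENZ libraries and 3.37, 3.68 and 3.15 CPM in Control libraries, with overlapping groups (0.15, interval −0.13 to 0.43; adjusted p = 0.399). NKD2, which binds dishevelled proteins, had 1.87, 2.99 and 2.11 CPM in ENZ libraries and 1.52, 1.62 and 1.69 CPM in Control libraries (0.55 ± 0.20; adjusted p = 0.0318). ENZ replicate 2 was its highest library, and without it the log2 fold change was 0.34 (adjusted p = 0.238). The call on NKD2 also ended without Control replicate 1 (0.51, adjusted p = 0.0934), Control replicate 2 (0.56, adjusted p = 0.0626) or Control replicate 3 (0.59, adjusted p = 0.057), and with GC and length offsets (0.36, adjusted p = 0.149). NKD1 had 0 to 4 counts in ENZ libraries and 1 to 5 in Control libraries. ASCL2, a stem cell factor, had 8, 7 and 1 counts in ENZ libraries and 5, 0 and 3 counts in Control libraries.

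A wider list of 117 pathway genes outside the 37, of which 109 were in the table and 86 were tested, had 38 genes called higher and 12 lower (58.1% called, against 39.8% over all genes tested; median log2 fold change 0.12). Of 12 tested further target genes 5 rose and 2 fell, against 4 higher and 3 lower with GC and length offsets. EPHB2, a receptor of crypt cells, rose 1.71-fold (6.01 ± 0.265 CPM in ENZ libraries and 3.6 ± 0.474 in Control libraries; adjusted p = 3.94e-05), SOX9 rose by 0.28 and the cyclin CCND1 by 0.26 on the log2 scale, while CD44 fell by 0.40. MYC had 158, 157 and 161 CPM in ENZ libraries and 152, 160 and 147 CPM in Control libraries (0.09, adjusted p = 0.0914, and 0.06 with the offsets), and was called without ENZ replicate 1 (0.10, adjusted p = 0.039) or Control replicate 2 (0.13, adjusted p = 0.0306). Among 15 nuclear cofactors 9 rose and 1 fell, against 6 higher and 2 lower with GC and length offsets, where SMARCA4 (0.00), CTBP1 (−0.02) and TLE5 (0.04) were among those not called. The corepressor TLE2 rose by 0.58, and the beta-catenin coactivators BCL9L and PYGO2 rose by 0.36 and 0.28, while PYGO1 fell by 0.49. With the offsets BCL9L had 0.23, PYGO2 0.19 and PYGO1 −0.28, all still called. Of 22 cytoplasmic components 9 rose and 0 fell, with DVL1, a dishevelled protein, up by 0.33 and DACT3 by 0.34. The offsets gave 13 higher and 1 lower in that group, with DVL1 at 0.12 and AMER1, a partner of APC, called lower (−0.23, adjusted p = 0.0195). DACT3 lost its call without ENZ replicate 2 (0.26, adjusted p = 0.0792) or Control replicate 1 (0.30, adjusted p = 0.0525). In the beta-catenin-independent arm 9 of 18 tested genes rose and 5 fell, against 7 higher and 5 lower with the offsets. The polarity cadherin CELSR1 was up by 0.67, CAMK2D by 0.27 (0.43 with the offsets) and PRKCA by 0.28. The kinases ROCK1 and ROCK2 each fell by 0.32 (0.12 and 0.19 with the offsets, both still called), and ROCK2 lost its call without ENZ replicate 2 (−0.33, adjusted p = 0.0594), Control replicate 1 (−0.30, adjusted p = 0.0702) or Control replicate 3 (−0.28, adjusted p = 0.088). PTK7, a co-receptor of that arm, rose by 0.50.

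The direction of change followed base composition among these genes as among all genes. The 11 genes called higher had a median GC content of 56.4% in their longest transcript (range 43.5% to 67.7%), and the 5 called lower had 42.2% (34.9% to 51.9%). Over the 30 tested genes Spearman's rho between GC content and log2 fold change was 0.50, as a description only, and over all tested genes it was 0.34. With GC and length offsets rho over the 30 was 0.07. The offsets are fitted to GC content and so remove such a trend by construction. With the offsets 7 of the 11 rises and 4 of the 5 falls were still called. FZD8, LRP5, PORCN and NKD2 were the rises lost, and LRP6 was the fall lost. WLS (0.90), ROR1 (0.71), WNT7B (0.62), DKK1 (0.58) and FZD7 (0.58) kept most or all of their size, as did FZD5 (−0.56) and LGR4 (−0.52). ROR1 and DKK1, with 44.2% and 43.7% GC, had larger values with the offsets than without. Over all tested genes the median log2 fold change was −0.18 under 40% GC and 0.14 over 60% GC, and the part of base composition in these changes was not tested.

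**Figure D4:**
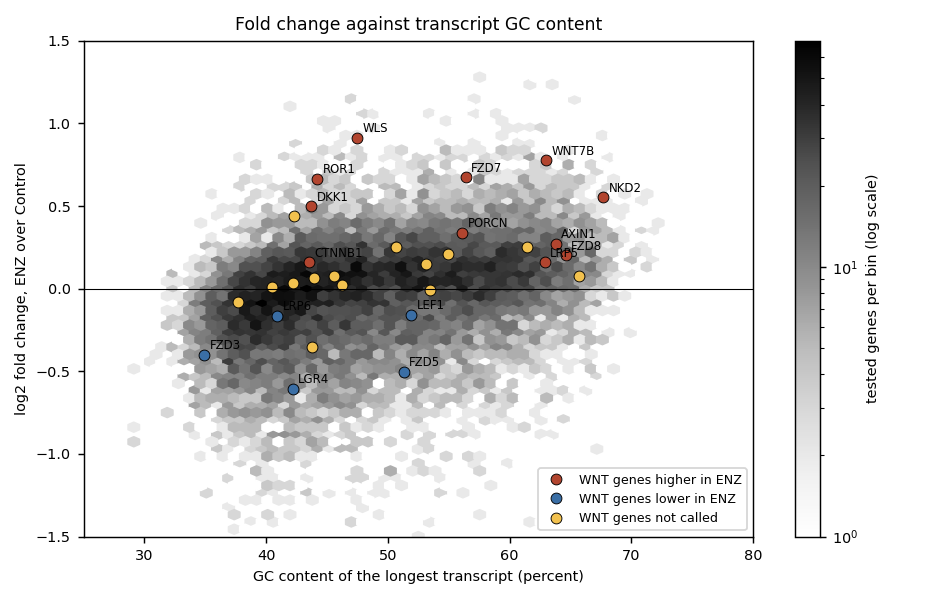
Log2 fold change (ENZ over Control) against the GC content of the longest transcript for all tested genes (grey bins, log colour scale; genes beyond the plotted y range are not drawn) and for the 30 tested WNT genes (points). FZD3 lies at the low-GC end among the falls (34.9%), and NKD2, FZD8, AXIN1, WNT7B and LRP5 lie at the high-GC end among the rises (62.9% to 67.7%).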

How the data were processed

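Raw counts and FPKM values per gene were deposited by the authors for 6 libraries. Per the labels' protocols libraries came from poly(A) RNA and a NEBNext Ultra kit. HTSeq 0.6.1, HISAT2 2.0.5 and DESeq2 1.20.0 appear, with GRCh38, in the submitters' processing notes; the sources used here give neither annotation release nor strand setting. The deposited FPKM values equalled counts scaled by library total and 1 length per gene (largest deviation 6.34e-06 percent at 10 or more counts).

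Groups came from the sample titles. edgeR 4.0.16 (R 4.3.3) was run on the counts with TMM factors, its default filter, robust dispersions and the quasi-likelihood test, with Benjamini-Hochberg adjustment over 18581 genes and a call at 0.05. SE is the absolute log2 fold change over the square root of F. The offsets were natural splines (4 degrees of freedom) in GC content and length of the longest GENCODE 44 transcript, known for 18538 tested genes. Positions are from GENCODE 44. Libraries of a group differed by more than sampling noise (chi-square per degree of freedom 1.93 to 6.15) and each was counted as a replicate. The main edgeR fit and the fit with the offsets were tested on simulated counts with known fold changes and a fixed dispersion. These counts carried no GC or length trend, so they could not test how the offsets remove one. The 37 genes and the wider lists were chosen with earlier results of these data known. Values are given in full for genes of the 37 called or with a mean of at least 10 CPM, and for wider genes the 20 largest called changes at a mean of at least 1 CPM, with MYC and CCND1; WNT10B, WNT4, WNT5B, AXIN2, RNF43, WIF1, AMER1, SMARCA4, CTBP1, TLE5 and other low genes and markers were named with their values known. Some markers of the prostate luminal list are not reported here. Alternatives comprised DESeq2 1.42.0, other scaling and filters, limma 3.58.1 on log2(FPKM + 1) and log2(FPKM + 0.1), the offsets, a replicate block and each library left out.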

Additional observations from a re-analysis of the deposited data

How the results depend on the processing

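Across 17 alternatives 9 of the 16 called WNT genes kept their direction and call wherever they were tested, and 0 reversed. LRP5, LRP6, PORCN, NKD2, FZD8, LEF1 and WNT7B lost the call in at least 1. WNT7B lost it only in limma on unfiltered log2(FPKM + 1) values (0.24, adjusted p = 0.0687), a scale that shrinks low genes. Leaving out 1 library gave 8 to 11 WNT genes higher and 4 to 6 lower. Over all genes it gave 3041 to 4264 higher and 2782 to 3994 lower. GC and length offsets gave 9 and 4 WNT genes, beside 4328 and 3476 over all genes. DESeq2 gave 8 and 5, beside 3219 and 2948 over all genes. Limma on filtered FPKM tested 18 of the 37 genes and called 6 higher with a pseudocount of 1 and 6 with 0.1, and 7 without the filter. In the same 3 fits the wider list had 24, 24 and 13 genes higher, and 5 lower without the filter. Over all genes those fits called 2526, 2520 and 1723 higher, and 2005 lower without the filter. On library totals alone 3097 genes were higher and 4104 lower, against 3814 and 3579 with TMM scaling; the cause of these shifts was not tested. The labels give both groups replicate numbers 1 to 3. Same-numbered libraries deviated together only weakly (correlations 0.08, 0.03 and −0.07), so the numbers were not taken as pairs, and the replicate block gave 11 WNT genes higher and 5 lower, 39 and 11 in the wider list, and 3832 and 3634 over all genes. With the block added to the offsets 9 and 4 WNT genes were called, beside 4290 and 3393 over all genes. Depth limits LGR5, WNT5A, NOTUM and the 7 untested genes, whose differences were not detectable at this depth.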
